A study of Homo sapiens with 18 samples.

Results

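The 59 genes described here encode proteins of mitosis: the kinases, spindle proteins, motors, kinetochore subunits, chromosome proteins and anaphase regulators that a cell uses to divide, with FOXM1, a transcription factor of the same stage. They were taken as a fixed list of gene symbols, without use of any measured value in the rule, though the list was chosen with earlier results of these data known. All 59 were found among the 40916 symbols of the count files. The study measured polyadenylated RNA by sequencing in cultures of human cell lines with and without ionising radiation, as 18 libraries in 6 groups of 3 biological replicates. MCF10A is a non-tumorigenic human mammary epithelial line, here carrying H2B-GFP (a histone fused to a green fluorescent protein). HCT116 is a human colorectal carcinoma line, here unlabelled. Each line was grown alone, and both were also co-cultured from equal parts. The 6 groups are MCF10A alone without radiation (MCF10A NIR) and after 10 Gy (MCF10A IR), HCT116 alone without (HCT116 NIR) and after 10 Gy (HCT116 IR), and the co-culture without (Mixed NIR) and after 10 Gy (Mixed IR). The sample titles give day 2 and the series text gives 72 h after irradiation, so the time of harvest is not settled by the labels. MCF10A and HCT116 were kept in different media, so differences between the lines and between their media cannot be told apart.

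Mitosis begins when kinases such as Aurora A, Aurora B and polo-like kinase 1 drive chromosome condensation and spindle assembly. Kinetochores built on the centromeres then bind microtubules, a checkpoint holds the cell until all chromosomes are attached, and the anaphase-promoting complex releases separase to part the sister chromatids before cytokinesis. In proliferating epithelial cells most of these genes are transcribed late in the cell cycle through the MuvB complex with B-MYB and FOXM1, and are repressed in resting or arrested cells by the DREAM complex, which contacts the CHR element (cell cycle genes homology region) of their promoters.

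The libraries held 25737818 to 40839835 counts. Values are given as CPM, counts per 1000000 counts of the library. Of 10 basal mammary markers, all 10 were higher in every MCF10A NIR than in every HCT116 NIR library. Of 8 intestinal markers, 5 were higher in every HCT116 NIR library, and CDX1 had no counts there. The share of counts from mitochondrially encoded genes rose with irradiation, from between 5.1% and 5.32% to between 6.06% and 6.35% in MCF10A and from between 8.42% and 8.75% to between 11.5% and 12.3% in HCT116. From genes specific to either line, MCF10A supplied an estimated 0.447% ± 0.053 of the RNA in Mixed NIR and 1.24% ± 0.066 in Mixed IR (SD, n = 3 each), so the co-culture libraries hold almost entirely HCT116 RNA.

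Because the members share a mode of transcription in the textbook account, their promoters were read from RefSeq (build GRCh38.p14), which held 60 promoters for 50 of the 59 members. Each promoter runs from 250 bases before to 50 bases after the transcription start. The CHR element, searched as TTTGAA or TTCGAA on both strands, was present in 41 of the 60 member promoters (68.3%) and in 16.4% of all 35116 promoters of the table. The CCAAT box, searched as CCAAT on both strands and bound by the factor NF-Y, was present in 40 (66.7%), against 34.6% of all promoters. An E2F element, searched on both strands as the letters TTCCCGC, or TTGGCGC, or TTCGCGC, or TTGCCGC, was present in 20 (33.3%), against 13.0%. A CHR and a CCAAT box together stood in 30 of the 60 (50.0%), against 6.38%. Of the 53 CHR matches, 24 lay within 60 bases before the start, 17 after it and 12 further before it. Promoters of the same gene can overlap, so in ECT2 and CDC25C the same site was counted from different starts. Matches are thus not all separate sites. Positions were not counted for all promoters of the table. Matches of different motifs may overlap, and a match describes the letters alone and not a bound site. The 120 bases before the start are printed for 7 members, each 5′ to 3′ in the direction of the gene, with matches to the CHR and the CCAAT box in capitals. MKI67, INCENP, CDC20, KIF23 and NCAPG are shown as members with a CHR that fell after irradiation in both lines. PTTG1 is shown because its fall was the smaller in HCT116, and DSN1 because its fall in MCF10A was the smallest. These are picked examples, and whether a CHR goes with the size of the fall was not tested. AURKB and KIF20A hold no CHR in the window and were among the largest falls, in MCF10A and HCT116 in that order. ECT2 and KIF18A hold a CHR and were among the smaller falls, in the same order.
MKI67: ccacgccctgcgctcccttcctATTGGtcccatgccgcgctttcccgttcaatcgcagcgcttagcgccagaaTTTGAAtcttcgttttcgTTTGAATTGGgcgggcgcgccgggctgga
INCENP: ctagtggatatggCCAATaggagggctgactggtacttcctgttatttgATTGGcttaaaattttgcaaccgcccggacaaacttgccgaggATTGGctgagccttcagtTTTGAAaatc
CDC20: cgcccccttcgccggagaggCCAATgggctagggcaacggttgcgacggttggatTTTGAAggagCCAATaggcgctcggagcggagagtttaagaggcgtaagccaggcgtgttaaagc
KIF23: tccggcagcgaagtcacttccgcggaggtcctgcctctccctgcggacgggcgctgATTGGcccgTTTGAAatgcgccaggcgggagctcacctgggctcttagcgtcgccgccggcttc
NCAPG: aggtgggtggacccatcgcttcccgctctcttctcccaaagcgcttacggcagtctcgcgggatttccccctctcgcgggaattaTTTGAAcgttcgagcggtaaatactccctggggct
PTTG1: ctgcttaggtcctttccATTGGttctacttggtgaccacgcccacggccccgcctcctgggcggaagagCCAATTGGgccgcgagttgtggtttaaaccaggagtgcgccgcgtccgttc
DSN1: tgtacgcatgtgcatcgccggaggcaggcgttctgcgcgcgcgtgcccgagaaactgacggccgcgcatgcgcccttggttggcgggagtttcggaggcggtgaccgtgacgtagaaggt
The stretches are chr10:128126424-128126543 (minus strand) for MKI67, chr11:62123891-62124010 (plus) for INCENP, chr1:43358861-43358980 (plus) for CDC20, chr15:69414229-69414348 (plus) for KIF23, chr4:17810859-17810978 (plus) for NCAPG, chr5:160421735-160421854 (plus) for PTTG1 and chr20:36773764-36773883 (minus) for DSN1. In MKI67 a CHR runs directly into a CCAAT box on the other strand, sharing letters with it. In INCENP 3 CCAAT boxes precede a CHR that ends close to the start. CDC20 and KIF23 carry a CHR near a CCAAT box, and NCAPG carries a CHR with no CCAAT box. PTTG1 holds 3 CCAAT matches and no CHR in the whole window. DSN1, CENPI, CENPE and KIF2C hold none of the 3 motifs in that window, which says only that these letters are not there.

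The first comparison asked what 10 Gy did to the mitotic genes in each line grown alone. Nearly the whole set fell, and the median fall was close in both lines. The summed level of the members was 8392, 8413 and 8632 CPM in the 3 MCF10A NIR libraries and 3330, 3396 and 3375 CPM in the 3 MCF10A IR libraries. In HCT116 it was 8572, 8392 and 7967 CPM without and 2787, 3002 and 3007 CPM with radiation. Irradiated cultures thus kept 39.7% of the summed level in MCF10A and 35.3% in HCT116, and the groups lay far apart in both. A smaller fraction of dividing cells and less mitotic RNA in each cell cannot be told apart in bulk RNA.

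In MCF10A all 59 members fell with an adjusted p under 0.05 by edgeR's quasi-likelihood test with Benjamini-Hochberg adjustment over all genes, against 29.2% of the 15154 genes tested that fell, and none rose, against 26.2%. All 59 passed the filter on low counts in every comparison. The fall was at least 2-fold for 55 members, against 3.37% of all genes tested, and the 3 irradiated libraries lay below the 3 others for all 59, against 29.9%. The median log2 fold change of the members was -1.36 (range -1.78 to -0.61), and that of all genes 0.00. In HCT116 58 of the 59 fell and none rose, against 27.2% and 25.3% of 16857 genes, 54 of them at least 2-fold, against 6.91%. Libraries did not overlap for 58 members, against 30.6% of all genes. The median was -1.40 (range -2.18 to -0.49), against 0.01 for all genes. Leaving out the mitochondrially encoded and the 10 most abundant genes gave medians of -1.36 in MCF10A and -1.41 in HCT116.

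**Figure D1:**
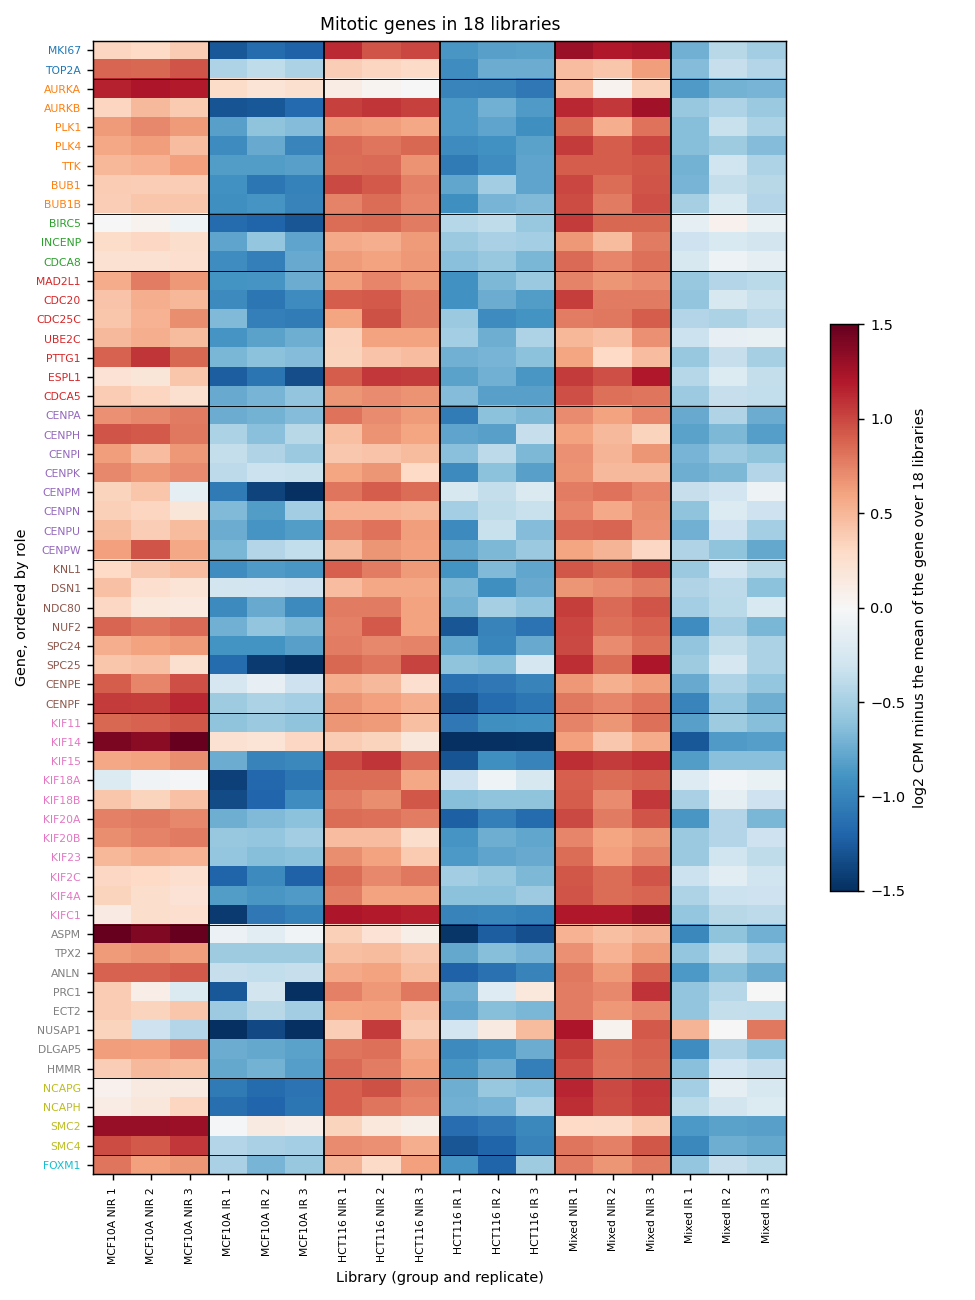
Heat map of the 59 mitotic genes (vertical axis, ordered and coloured by role) in the 18 libraries (horizontal axis), with colour giving log2 CPM minus the gene's mean over all libraries. Irradiated libraries are blue for nearly all genes in all 3 cultures; KIF14, ASPM and SMC2 stand out as higher in MCF10A, and PRC1 and NUSAP1 are patchy.

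MKI67 encodes Ki-67, the proliferation marker that coats mitotic chromosomes, and TOP2A encodes topoisomerase II alpha, which untangles sister DNA. MKI67 was at 670, 662 and 700 CPM in MCF10A NIR and at 222, 240 and 231 CPM in MCF10A IR. In HCT116 it was at 1164, 1028 and 1070 CPM without and at 294, 305 and 308 CPM with radiation. No irradiated library reached any unirradiated one in either line. The log2 fold change was -1.57 ± 0.04 (SE) in MCF10A and -1.84 ± 0.06 in HCT116, with adjusted p of 1.1e-21 and 3.5e-17 by edgeR's quasi-likelihood test with Benjamini-Hochberg adjustment. TOP2A stood at 586, 582 and 617 CPM in MCF10A NIR and 231, 246 and 231 CPM in MCF10A IR, a log2 fold change of -1.36 ± 0.04. In HCT116 it stood at 414, 398 and 390 CPM without and 167, 191 and 190 CPM with radiation, -1.13 ± 0.06. TOP2A thus fell below every unirradiated library in both lines.

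All 7 mitotic kinases fell in both lines, with medians of -1.39 in MCF10A and -1.57 in HCT116. AURKB, the Aurora kinase of the chromosomal passenger complex, fell the most of them in MCF10A, from 45.5, 51.1 and 47.9 to 14.9, 15.1 and 16.3 CPM (log2 fold change -1.66 ± 0.08). In HCT116 it fell from 74.3, 76.4 and 74.3 to 20.1, 22.2 and 20.3 CPM (-1.84 ± 0.08). AURKA, the Aurora kinase of the spindle poles, fell the least of the kinases in both, with -0.96 ± 0.05 and -1.06 ± 0.07. BUB1, a checkpoint kinase at the kinetochore, stood at 139, 138 and 137 CPM in MCF10A NIR and 56.8, 50.3 and 52.6 CPM in MCF10A IR. In HCT116 BUB1 stood at 212, 202 and 180 CPM without and 62.3, 74.3 and 61.8 CPM with radiation. Its relative BUB1B, which encodes the checkpoint protein BubR1, changed by -1.35 ± 0.06 in MCF10A and by -1.52 ± 0.07 in HCT116. PLK1, the main polo-like kinase, changed by -1.38 ± 0.06 and -1.47 ± 0.07, PLK4, which starts centriole duplication, by -1.48 ± 0.08 and -1.72 ± 0.08, and TTK, the checkpoint kinase MPS1, by -1.39 ± 0.06 and -1.71 ± 0.08.

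The 3 partners of AURKB in the chromosomal passenger complex, which corrects faulty attachments, fell in both lines, with medians of -1.16 in MCF10A and -1.25 in HCT116. BIRC5, which encodes survivin, stood at 105, 109 and 100 CPM in unirradiated and 47.2, 45.5 and 43.0 CPM in irradiated MCF10A, and at 187, 190 and 179 CPM without and 77.7, 80.3 and 70.6 CPM with radiation in HCT116. INCENP, the scaffold of the complex, was at 88.5, 90.8 and 88.0 CPM in MCF10A NIR and 42.1, 48.7 and 42.4 CPM in MCF10A IR, and at 109, 106 and 114 CPM in HCT116 NIR and 49.7, 52.2 and 51.4 CPM in HCT116 IR. For both genes the groups did not overlap. CDCA8, which encodes borealin, changed by -1.16 ± 0.08 and -1.25 ± 0.08.

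The 7 genes of the checkpoint, anaphase and mitotic entry fell in both lines, with medians of -1.51 in MCF10A and -1.43 in HCT116. MAD2L1 encodes the checkpoint inhibitor MAD2, and CDC20 the activator of the anaphase-promoting complex that MAD2 holds. MAD2L1 stood at 194, 225 and 207 CPM in unirradiated and 70.9, 71.5 and 78.9 CPM in irradiated MCF10A, and at 204, 220 and 207 CPM without and 70.6, 82.7 and 89.6 CPM with radiation in HCT116. CDC20 was at 159, 174 and 168 CPM in MCF10A NIR and 61.3, 56.1 and 61.6 CPM in MCF10A IR, and at 222, 225 and 204 CPM in HCT116 NIR and 63.2, 71.2 and 66.6 CPM in HCT116 IR. Inhibitor and activator thus fell together, with -1.52 ± 0.06 and -1.51 ± 0.05 in MCF10A and -1.37 ± 0.07 and -1.69 ± 0.06 in HCT116. ESPL1, the protease separase, changed by -1.51 ± 0.08 and -1.79 ± 0.07, and its inhibitor securin (PTTG1) by -1.61 ± 0.06 and -1.08 ± 0.07. UBE2C, a ubiquitin-conjugating enzyme of the anaphase-promoting complex, changed by -1.33 ± 0.06 and -1.08 ± 0.08, CDC25C, the phosphatase of mitotic entry, by -1.47 ± 0.12 and -1.57 ± 0.12, and CDCA5, the cohesin protector sororin, by -1.02 ± 0.07 and -1.43 ± 0.07.

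The 8 centromere and inner kinetochore genes fell in both lines, with medians of -1.26 in MCF10A and -1.23 in HCT116. CENPN, which binds the centromeric nucleosome, stood at 50.1, 48.9 and 44.3 CPM in unirradiated and 24.9, 22.0 and 27.3 CPM in irradiated MCF10A, and at 56.1, 56.4 and 55.6 CPM without and 27.4, 30.1 and 31.0 CPM with radiation in HCT116. Its log2 fold changes, -0.97 ± 0.08 and -0.92 ± 0.08, were the smallest of the group in both lines. CENPU was at 39.0, 36.1 and 38.9 CPM in MCF10A NIR and 16.7, 15.2 and 15.7 CPM in MCF10A IR, and at 47.0, 49.4 and 43.1 CPM in HCT116 NIR and 14.5, 22.2 and 17.8 CPM in HCT116 IR. CENPA, the centromeric histone variant, changed by -1.45 ± 0.10 and -1.48 ± 0.12. CENPM had the largest fall of the group in MCF10A, -1.57 ± 0.17, at low levels (11.2, 11.9 and 7.99 to 4.26, 3.39 and 3.09 CPM). The other four, CENPH, CENPI, CENPK and CENPW, lay between -1.41 and -1.05 in MCF10A and between -1.30 and -0.98 in HCT116.

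The 8 outer kinetochore genes, whose products grip the microtubules, fell in both lines, with medians of -1.39 in MCF10A and -1.51 in HCT116. CENPF, a large protein of the outer plate, was the most abundant and stood at 784, 780 and 832 CPM in unirradiated and 262, 273 and 266 CPM in irradiated MCF10A, and at 604, 584 and 555 CPM without and 154, 170 and 179 CPM with radiation in HCT116. KNL1, the scaffold for the checkpoint proteins, was at 107, 115 and 120 CPM in MCF10A NIR and 45.9, 48.2 and 47.5 CPM in MCF10A IR, and at 162, 148 and 136 CPM in HCT116 NIR and 46.8, 55.1 and 50.7 CPM in HCT116 IR. SPC25 had the largest fall of all 59 members in MCF10A, from 31.7, 32.1 and 28.1 to 10.7, 8.79 and 7.85 CPM (-1.78 ± 0.11). The 4 subunits of its NDC80 complex, NDC80, NUF2, SPC24 and SPC25, ranged from -1.78 to -1.11 in MCF10A and from -1.88 to -1.31 in HCT116, so they did not fall by one common amount. CENPE, a kinetochore motor, changed by -1.12 ± 0.06 and -1.49 ± 0.07.

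All 11 kinesins, the motors of the spindle, fell in both lines, with medians of -1.40 in each. KIF23, a motor of the central spindle, stood at 180, 185 and 182 CPM in unirradiated and 84.8, 81.8 and 83.1 CPM in irradiated MCF10A, and at 206, 194 and 167 CPM without and 70.0, 73.5 and 75.5 CPM with radiation in HCT116. KIF14, which acts in cytokinesis, was at 270, 260 and 289 CPM in MCF10A NIR and 119, 117 and 126 CPM in MCF10A IR, and at 132, 128 and 115 CPM in HCT116 NIR and 35.5, 35.7 and 36.3 CPM in HCT116 IR. The largest falls of all members in HCT116 were those of 3 kinesins. KIFC1, a minus-end motor that clusters spindle poles, changed by -2.18 ± 0.07, KIF15, which helps keep the spindle bipolar, by -2.03 ± 0.10, and KIF20A, a motor of cytokinesis, by -1.94 ± 0.07. KIF11, the motor Eg5 that pushes the poles apart, changed by -1.50 ± 0.05 in MCF10A and -1.55 ± 0.07 in HCT116. KIF18A, which shortens microtubules to align chromosomes, had the smallest fall of the kinesins in both lines, -1.14 ± 0.09 and -0.95 ± 0.08.

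Of the 8 spindle and cytokinesis genes all fell in MCF10A and 7 in HCT116, with medians of -1.25 and -1.40. ANLN encodes anillin of the cleavage furrow and stood at 469, 470 and 481 CPM in unirradiated and 200, 197 and 199 CPM in irradiated MCF10A, and at 375, 385 and 351 CPM without and 109, 117 and 127 CPM with radiation in HCT116. TPX2, an activator of Aurora A on the spindle, was at 416, 426 and 411 CPM in MCF10A NIR and 184, 184 and 184 CPM in MCF10A IR, and at 364, 370 and 353 CPM in HCT116 NIR and 157, 171 and 164 CPM in HCT116 IR. Replicates of both were close, and no irradiated library came near an unirradiated one. ASPM, a protein of the spindle poles, changed by -1.61 ± 0.05 and -1.55 ± 0.07, and ECT2, which activates RhoA at the furrow, by -0.89 ± 0.05 and -1.25 ± 0.06. DLGAP5 and HMMR, which bind spindle microtubules, changed by -1.45 ± 0.05 and -1.22 ± 0.06 in MCF10A and by -1.59 ± 0.07 and -1.61 ± 0.08 in HCT116.

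The remaining 2 of the spindle genes, PRC1 and NUSAP1, were measured at very low counts. PRC1, which bundles central spindle microtubules, had 12 to 88 counts per library, and NUSAP1, which binds spindle microtubules near chromosomes, had 4 to 38. In the GENCODE v29 annotation 57.6% of the exon bases of PRC1 are shared with AC068831.7 and 62.2% of those of NUSAP1 with AC087721.2 on the same strand, whereas no other member shares over 10.2%. The effect of this overlap on the counts was not tested, so the levels of both are uncertain. NUSAP1 was at 0.706, 0.451 and 0.410 CPM in MCF10A NIR and at 0.147, 0.219 and 0.147 CPM in MCF10A IR, and at 0.723, 1.15 and 0.724 CPM in HCT116 NIR and 0.457, 0.612 and 0.777 CPM in HCT116 IR. The groups overlapped in HCT116 and not in MCF10A. Its log2 fold change in MCF10A was -1.62 ± 0.61 with an adjusted p of 0.026 by edgeR's quasi-likelihood test, and this call was lost with DESeq2 (adjusted p 0.089), without the filter on low counts (0.078) and without MCF10A NIR replicate 1 (0.13) or MCF10A IR replicate 1 or 3 (both 0.090). In HCT116 it was -0.49 ± 0.47. PRC1 changed by -1.10 ± 0.45 in MCF10A and by -0.94 ± 0.35 in HCT116, with adjusted p of 0.039 and 0.027 by the same edgeR test. The MCF10A call of PRC1 was lost with upper-quartile factors, with DESeq2 and without any 1 of MCF10A NIR replicates 1 and 2 and MCF10A IR replicates 1 and 3. Its HCT116 call was lost without HCT116 NIR replicate 1, HCT116 NIR replicate 3 or HCT116 IR replicate 1.

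The 4 condensin subunits, which compact chromosomes, fell in both lines, with medians of -1.31 and -1.47. SMC4, an ATPase of the complex, stood at 324, 311 and 343 CPM in unirradiated and 121, 117 and 116 CPM in irradiated MCF10A, and at 268, 265 and 240 CPM without and 67.7, 71.5 and 81.8 CPM with radiation in HCT116. NCAPG was at 123, 128 and 129 CPM in MCF10A NIR and 56.4, 52.9 and 54.5 CPM in MCF10A IR, and at 218, 228 and 200 CPM in HCT116 NIR and 70.6, 79.3 and 75.9 CPM in HCT116 IR. NCAPH, the kleisin that closes the ring, and SMC2, the second ATPase, changed by -1.36 ± 0.07 and -1.26 ± 0.05 in MCF10A and by -1.43 ± 0.08 and -1.25 ± 0.07 in HCT116. FOXM1 itself stood at 73.7, 64.5 and 66.4 CPM in unirradiated and 30.0, 25.9 and 28.3 CPM in irradiated MCF10A, and at 60.1, 51.6 and 64.3 CPM without and 22.8, 18.3 and 29.1 CPM with radiation in HCT116. Its log2 fold changes, -1.30 ± 0.07 and -1.33 ± 0.12, were close to those of the median member. Opposite-strand genes cover 33.1% of the exon bases of NCAPG, 25.6% of SMC4, 22.8% of CENPN and 15.9% of FOXM1, 12.7% of KIFC1, 12.5% of PLK1 and 11.7% of CENPU, and how strand was used in counting is not given in the sources used here. The kit was stranded, but whether counting used the strand is unknown. The counts of these 7 may therefore include reads from the opposite strand. In the other members such overlap was at most 8.78% (CDC25C).

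Genes of the same processes that are not members were grouped in 6 lists chosen with earlier results known, to be read against the 29.2% of all genes that fell and 26.2% that rose in MCF10A and the 27.2% and 25.3% in HCT116. All 22 further spindle, centrosome and cytokinesis genes fell in both lines, with medians of -1.18 in MCF10A and -1.24 in HCT116, among them NEK2, a centrosomal kinase, at -1.50 and -1.81. All 4 further condensin subunits fell, with medians of -1.15 and -1.45. Of 27 further kinetochore and centromere subunits, 25 fell in MCF10A and 24 in HCT116, with medians of -0.89 and -0.87. CENPT, an inner kinetochore subunit, rose by 0.77 in MCF10A and fell by 0.34 in HCT116, and the difference, -1.19, was called by the edgeR interaction test. Of 11 cohesin genes, 9 fell and 2 rose in MCF10A, and 8 fell and 1 rose in HCT116, with medians of -0.51 and -0.52. Of 15 genes of the anaphase-promoting complex, 13 fell and 1 rose in MCF10A with a median of -0.36, and 5 fell and 2 rose in HCT116 with a median of -0.02, where the count that fell was near the share over all genes. CDC20 and UBE2C, the members that serve this complex, changed by over 1 log2 unit in both lines. Of 12 genes of the MuvB core, B-MYB and DREAM, 9 fell in MCF10A, and 7 fell and 2 rose in HCT116, with medians of -0.58 and -0.39, and MYBL2, which encodes B-MYB, changed by -1.54 and -1.41.

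**Figure D2:**
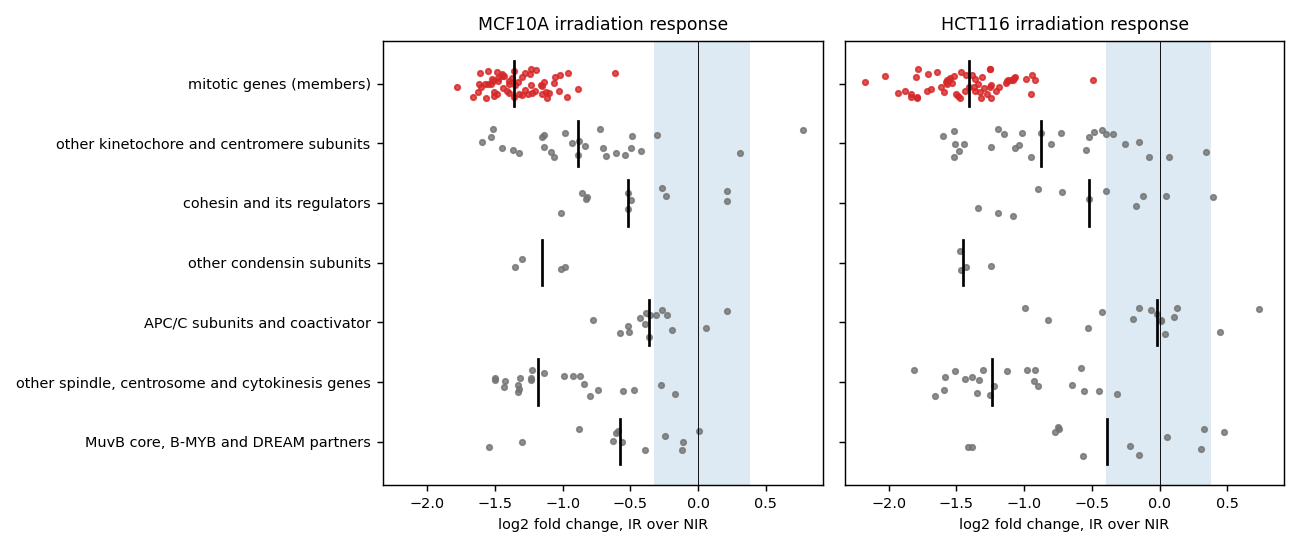
Log2 fold change after irradiation (horizontal axis) for the members (red) and 6 lists of related genes (grey) in MCF10A and HCT116; each point is a gene, black bars are medians, vertical scatter is only for display, and the blue band spans the middle quartiles of all genes tested. The members all lie left of the band, and the median of the anaphase-promoting complex is the closest to 0 of the 7 medians in both lines.

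The second comparison asked whether the responses of HCT116 and MCF10A differed, by an interaction test over 4 groups. A larger fall in HCT116 was called for 23 members and a smaller fall for 1, PTTG1, against 21.9% and 15.4% of 18179 genes tested. The median difference of the members was -0.17, against -0.10 for all genes, so relative to all genes the members differed by -0.07. The called members included 5 of 11 kinesins, 5 of 8 outer kinetochore genes and 4 of 7 kinases, and none of the 8 centromere and inner kinetochore genes. The number of larger falls was 15 without the mitochondrially encoded and 10 most abundant genes, and 14 without MCF10A IR replicate 1 or MCF10A IR replicate 2. Across the 59 members the fall was larger in HCT116 for 41 and in MCF10A for 18. The same split was not counted over all genes, so it cannot be read as particular to the members. As a description over 59 genes that share the same libraries, Pearson's r between the responses was 0.385 and Spearman's rho 0.477.

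KIFC1 differed most. It was at 53.8, 59.8 and 59.1 CPM in MCF10A NIR and 18.4, 23.5 and 24.6 CPM in MCF10A IR, and at 115, 113 and 111 CPM in HCT116 NIR and 24.8, 25.2 and 24.5 CPM in HCT116 IR. In CPM every HCT116 NIR library lay above every MCF10A NIR library, and after radiation the libraries of both lines lay close together. The difference in log2 fold change was -0.86 ± 0.12, with an adjusted p of 1.5e-06 by edgeR's quasi-likelihood test. DSN1, a subunit of the MIS12 complex that joins inner and outer kinetochore, was at 55.9, 48.8 and 47.4 CPM in MCF10A NIR and 34.1, 33.8 and 33.1 CPM in MCF10A IR. In HCT116 it was at 56.7, 61.5 and 61.5 CPM without and 25.7, 21.8 and 24.4 CPM with radiation. Its difference was -0.78 ± 0.11, and its fall in MCF10A, -0.61 ± 0.07, was the smallest of all members. KIF14 followed with -0.67 ± 0.08. PTTG1 was at 138, 158 and 136 CPM in MCF10A NIR and 46.7, 49.0 and 48.0 CPM in MCF10A IR, and at 95.0, 101 and 104 CPM in HCT116 NIR and 45.5, 46.4 and 49.3 CPM in HCT116 IR. In CPM, irradiated libraries of both lines reached the same range from different starting levels. This likeness depends on the scaling. Between the irradiated lines, the median log2 fold change of all genes was 0.27 with library size alone and 0.04 in the main fit. The difference between the responses of PTTG1 was 0.45 ± 0.09. In the interaction fit MKI67 fell more in HCT116 by 0.34 ± 0.07. That fit put the median of all genes at -0.10, and the fits of each line put it at 0.00 and 0.01. Differences from the interaction fit hold this shift, so they do not equal the differences between the falls given for each line. For TOP2A the difference was 0.15 ± 0.07 with an adjusted p of 0.11 by the same edgeR test, and it was called at 0.25 when the mitochondrially encoded and 10 most abundant genes were left out.

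**Figure D3:**
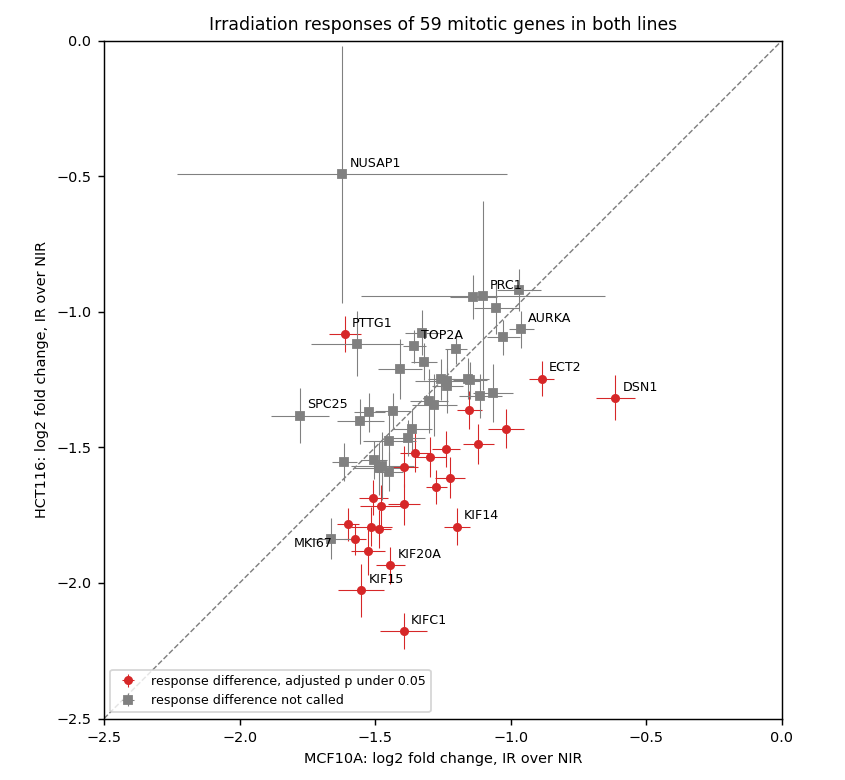
Log2 fold change of each of the 59 members after irradiation in MCF10A (horizontal axis) and HCT116 (vertical axis), with bars of 1 SE and the line of equal change dashed; red circles mark members whose responses differed with an adjusted p under 0.05. KIFC1, KIF14 and DSN1 lie below the line and PTTG1 above it, and NUSAP1 and PRC1 have wide bars.

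The third comparison set the lines against each other within a treatment. Without radiation 25 members were lower and 20 higher in HCT116 than in MCF10A, against 36.1% and 38.7% of 16568 genes. The median was 0.04, near the 0.05 of all genes. In CPM, without the scaling factors of the fit, libraries did not overlap for 32 members that were higher and 15 that were lower. The shares over all genes were 48.1% and 29.6%. These shares, like the counts of calls, were near the background, so the members did not stand apart from other genes here. ASPM was lower in HCT116, at 206, 188 and 172 CPM against 461, 424 and 478 CPM (log2 fold change -1.46 ± 0.06). AURKA was at 84.6, 80.5 and 77.8 CPM against 174, 181 and 177 CPM (-1.33 ± 0.05), KIF14 differed by -1.33 ± 0.06 and SMC2 by -1.31 ± 0.06. Higher in HCT116 were KIFC1 (0.78 ± 0.06), KIF18A (0.65 ± 0.08), BIRC5 (0.63 ± 0.05), NCAPG (0.56 ± 0.06) and MKI67 (0.49 ± 0.05). KIF18A was at 84.0, 84.3 and 70.6 CPM in HCT116 and 40.9, 45.2 and 46.3 CPM in MCF10A. With upper-quartile factors or library size alone, 15 members were lower in HCT116. These scalings moved the median of all genes from 0.05 to 0.25, and the members kept a median of -0.01 relative to all genes. MAD2L1, UBE2C, KIF20A, KIF23 and ECT2 turned from lower to higher values in HCT116 under both scalings.

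After radiation 29 members were lower and 10 higher in HCT116, against 36.8% and 38.1% of 16932 genes. The median was -0.26, against 0.04 for all genes. In CPM, which lack the scaling factors of the fit, libraries did not overlap for 20 members that were higher and 18 that were lower. The shares over all genes were 49.2% and 29.7%, so counts of overlap and of calls stand on different scales. KIF14 had the largest difference, at 35.5, 35.7 and 36.3 CPM against 119, 117 and 126 CPM (-1.98 ± 0.06), followed by AURKA at -1.49 ± 0.06 and ASPM at -1.46 ± 0.06. The 10 members higher in HCT116 included CENPM (0.81 ± 0.18), KIF18A (0.79 ± 0.09), SPC25 (0.66 ± 0.14), BIRC5 (0.53 ± 0.07) and KIF2C (0.31 ± 0.08), a kinesin that takes microtubules apart, beside the uncertain NUSAP1 (1.60 ± 0.60). MKI67 differed by 0.16 ± 0.05 after radiation, a call that was lost without MCF10A IR replicate 1 (0.11, adjusted p 0.072 by edgeR). With upper-quartile factors or library size alone 18 or 21 members were higher, and the median was -0.07 or -0.03. With library size alone, CDC20, BUB1B and INCENP, which were below 0 and not called, were called higher.

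Per kilobase of exon, TPX2 had the highest level of the members in MCF10A NIR, 115.8 CPM per kilobase, followed by TOP2A at 92.4 and CDC20 at 82.0. In HCT116 NIR CDC20 led at 106.5 CPM per kilobase, followed by TPX2 at 100.5 and MKI67 at 84.9. TPX2 had the highest level in both irradiated lines, at 51.1 CPM per kilobase in MCF10A and 45.5 in HCT116. These levels use all exons of the annotation and not the isoforms in use.

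**Figure D4:**
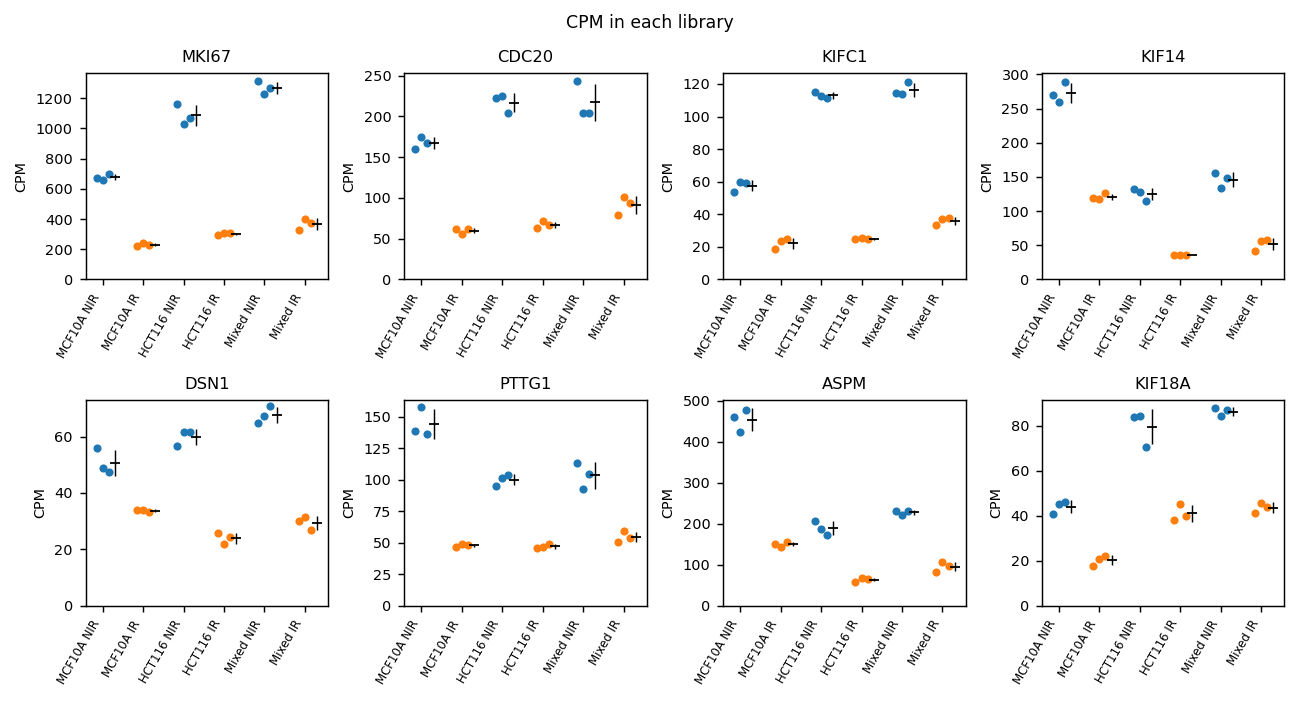
CPM (vertical axes, from 0) of 8 members in each library of the 6 groups (horizontal axes), with points for libraries, blue without and orange with radiation, and a bar for the mean ± SD of 3 libraries. In every panel the irradiated libraries of a culture lie below its unirradiated ones; KIFC1 reaches 24.5 to 25.2 CPM in HCT116 IR and 33.1 to 37.7 CPM in Mixed IR.

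The fourth comparison concerned the co-culture. In the co-culture 58 members fell after radiation and none rose, against 25.4% and 24.0% of 16906 genes, 53 of them at least 2-fold, against 4.29%, with a median of -1.28 (range -1.82 to -0.35). Libraries did not overlap for 58 members, against 26.7% of all genes. NUSAP1 was the exception, at -0.35 ± 0.44. MKI67 went from 1312, 1230 and 1267 to 325, 400 and 373 CPM (-1.82 ± 0.06), KIF15 changed by -1.80 ± 0.08 and KIFC1 by -1.72 ± 0.07. The summed level of the members was 9569, 8783 and 9470 CPM without and 3308, 3972 and 3738 CPM with radiation, 39.6%.

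Without radiation few members were called between the co-culture and HCT116 alone. Of the members, 3 were higher in the co-culture and none lower, against 0.887% of 16455 genes called higher and 1.15% lower. The members' median was 0.16, and that of all genes 0.00. The 3 called were ASPM (0.28 ± 0.07), KIF20B, a motor of cytokinesis (0.28 ± 0.07), and MKI67 (0.24 ± 0.06), with adjusted p of 0.026, 0.032 and 0.041 by edgeR's quasi-likelihood test. At an unadjusted p under 0.05, 32 members were higher, but the share of all genes at that threshold was not counted. DESeq2 called 10 members, all higher, and of all genes that it called 51.5% were higher. Libraries did not overlap for 25 members, all higher in the co-culture, against 8.5% of all genes. These calls were unstable: leaving out HCT116 NIR replicate 2, Mixed NIR replicate 1 or Mixed NIR replicate 3 left 0 members, HCT116 NIR replicate 3 left 1, and Mixed NIR replicate 2 gave 5. More members than in the main fit were called higher without the filter, with all libraries in one fit and with a replicate block. Fewer were called with library size alone.

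After radiation the co-culture held more mitotic RNA than irradiated HCT116 alone. Of the members, 40 were higher and none lower, against 5.08% of 17137 genes called higher and 3.48% lower. The members' median was 0.33 (range -0.13 to 0.57), and that of all genes 0.00. Libraries did not overlap for 42 members, against 14.0%. By role the called members included 10 of 11 kinesins, all 4 condensin subunits, all 3 passenger complex partners, 6 of 8 outer kinetochore genes, 5 of 7 checkpoint and anaphase genes, 4 of 7 kinases, and none of the 8 centromere and inner kinetochore genes, whose median was 0.05. Without Mixed IR replicate 2, 24 members were called.

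ASPM was at 82.6, 106 and 98.0 CPM in Mixed IR and 58.9, 68.4 and 64.7 CPM in HCT116 IR (log2 fold change 0.57 ± 0.07). KIF14 was at 41.9, 56.6 and 57.1 CPM against 35.5, 35.7 and 36.3 CPM (0.52 ± 0.09), and KIFC1 at 33.1, 37.2 and 37.7 CPM against 24.8, 25.2 and 24.5 CPM (0.52 ± 0.08). For these 3 genes every co-culture library lay above every HCT116 library, with Mixed IR replicate 1 the lowest of the co-culture. CDC20 differed by 0.43 ± 0.07, BIRC5 by 0.38 ± 0.07, FOXM1 by 0.41 ± 0.11 and TOP2A by 0.33 ± 0.06. MKI67 differed by 0.27 ± 0.06, a call lost without Mixed IR replicate 2 (0.20, adjusted p 0.055 by edgeR). The call of FOXM1 was lost without HCT116 IR replicate 2, Mixed IR replicate 2 or Mixed IR replicate 3. CENPA, by contrast, differed by 0.11 ± 0.14 and CENPN by 0.04 ± 0.09, both short of the threshold.

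A sum of the lines alone, weighted by the estimated share of each, would raise a member by at most 2.94% after radiation and by at most 0.628% without, if each line kept its own profile in co-culture, which was not tested. The co-culture was 25.7% higher for the median member after radiation and 10.2% higher without. The part of MCF10A RNA in this difference was not tested beyond these values. Of the further lists, 11 of 22 spindle genes, 3 of 4 condensin subunits and 6 of 27 kinetochore subunits were higher in irradiated co-culture, and none of 11 cohesin genes or 15 genes of the anaphase-promoting complex, against 5.08% of all genes. Of the 12 MuvB and DREAM genes 1 was higher, MYBL2, by 0.39 ± 0.07. The medium of the co-culture is not given in the sources used here.

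The test of the difference between the responses of the co-culture and HCT116 called 1 member, KIFC1, at 0.47 ± 0.09 (adjusted p 0.0080 by edgeR's quasi-likelihood test), against 0.681% of 18072 genes. Its fall was the smaller in co-culture, and the call was lost without Mixed NIR replicate 1, Mixed IR replicate 2 or Mixed IR replicate 3. The median difference over the members was 0.14, against 0.02 for all genes. At an unadjusted p under 0.05, 15 members were higher and 1 lower, but the share of all genes at that threshold was not counted. DESeq2 called 2 members, both higher, and of all genes that it called 60.7% were higher. For MKI67 the difference was 0.03 ± 0.09 and for TOP2A 0.14 ± 0.10. The members' higher levels in irradiated co-culture were thus called between irradiated groups, and a difference in response was called for KIFC1 alone among the 59.

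**Figure D5:**
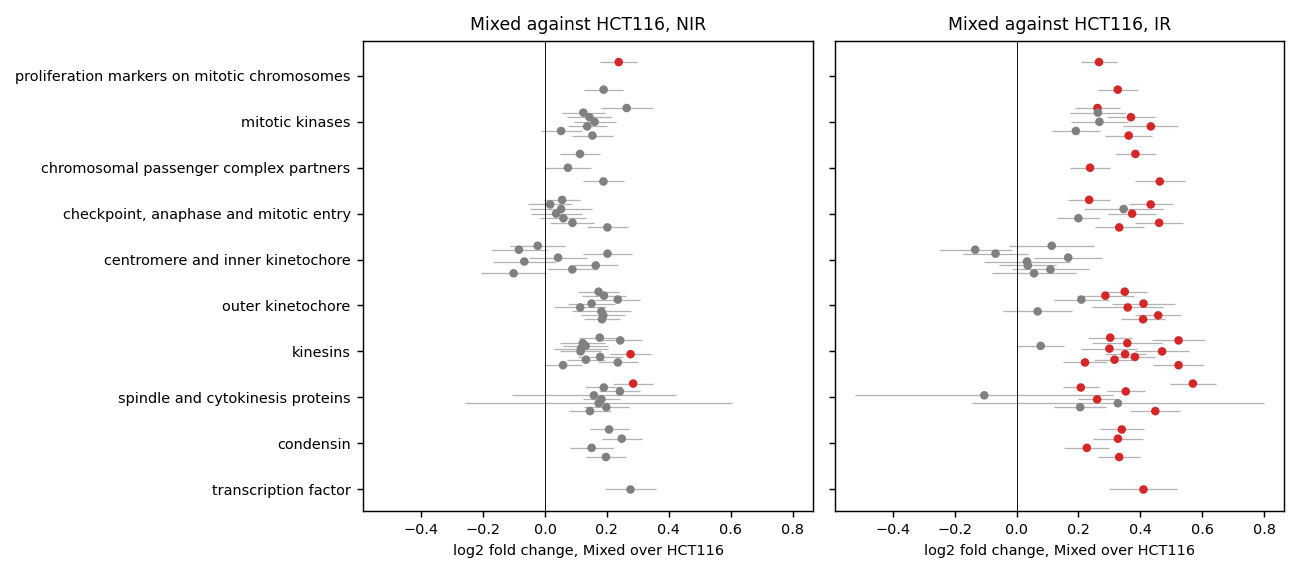
Log2 fold change of the co-culture over HCT116 alone (horizontal axis) without (left) and with (right) radiation for the 59 members by role (vertical axis), with bars of 1 SE and members with an adjusted p under 0.05 in red. After radiation 40 members are called, all to the right of 0, and the 8 centromere and inner kinetochore genes lie around 0.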

How the data were processed

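RNA was prepared with a stranded poly(A) kit and sequenced in pairs, per the labels' protocols. Per the submitters' processing notes, reads were handled with fastp, STAR, featureCounts and GRCh38; versions, annotation and strand setting are not given in the sources used here. The deposited values are raw counts per gene symbol, 1 file per library. Of values from 1 to 10, 68.3% were even; how mates were counted is not given in the sources used here, and counts were also halved as an alternative. The depth of each library is its total count. CPM were computed as counts per 1000000 of the library total. Each comparison used edgeR 4.0.16 (R 4.3.3) with TMM factors, filterByExpr and the 2-sided quasi-likelihood test on the groups compared, with Benjamini-Hochberg adjustment over all genes tested and a threshold of 0.05. The code was tested on simulated data. DESeq2 1.42.0, other scaling factors, no filter, all 18 libraries in one fit, a replicate block and leaving out each replicate were alternatives. Genes specific to a line (mean of at least 20 CPM there and less than 1 CPM in each library of the other, within a treatment) gave the RNA shares. Named genes were the 2 most abundant members of each role, MKI67 and TOP2A, the 3 largest called changes in each direction of each comparison and up to 5 called against the majority, and members not called after irradiation; others are given as members of a role. Members and lists were chosen with earlier results of these data known. The labels call the replicates biological, and p-values measure the spread between them. One item of the labels and its check are not reported here.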

Additional observations from a re-analysis of the deposited data

Results flagged for a closer look

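The responses of the 2 lines differed by the edgeR interaction test for 24 of the 59 members. The fall was larger in HCT116 for 23 and smaller for 1, against 21.9% and 15.4% of all genes called lower and higher. Over both directions together the count of called members was near the background. By direction, larger falls were more frequent than the share over all genes and smaller falls less frequent. The median difference was -0.17 for the members and -0.10 for all genes. The single differences below hold this shift of all genes. It was -0.006 when the mitochondrially encoded and 10 most abundant genes were left out. The fall in HCT116 exceeded that in MCF10A, on the log2 scale (HCT116 minus MCF10A), for the kinesins KIFC1 (-0.86), KIF14 (-0.67), KIF20A (-0.57), KIF15 (-0.55) and KIF23 (-0.29). Among kinetochore genes the differences were -0.78 for DSN1, -0.45 for CENPE, -0.43 for NUF2, -0.32 for KNL1 and -0.26 for CENPF. Among kinases they were -0.39 for TTK, -0.32 for PLK4, -0.25 for BUB1 and -0.24 for BUB1B. Among anaphase and cohesion genes they were -0.49 for CDCA5, -0.36 for ESPL1 and -0.26 for CDC20. Spindle and furrow genes had -0.46 for HMMR, -0.45 for ANLN and -0.44 for ECT2, condensin had -0.39 for SMC4 and -0.35 for NCAPG, and MKI67 had -0.34. PTTG1 differed in the other direction, by 0.45. Between the co-culture and HCT116, the response of KIFC1 differed by 0.47.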

How the results depend on the processing

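The falls after radiation kept their direction under every alternative run, for all 59 members, and so did their calls, apart from those of PRC1 in both lines and of NUSAP1 in MCF10A. The MCF10A median was -1.27 with upper-quartile factors. For HCT116 against MCF10A, 15 members were lower without radiation with upper-quartile factors and with library size alone (medians 0.24 and 0.24), and 18 and 21 were higher after radiation (medians -0.074 and -0.026; -0.19 with all libraries in one fit). With upper-quartile factors and library size alone, in that order, log2 differences turned from lower to higher in HCT116 NIR for MAD2L1 (0.014 and 0.011), UBE2C (0.024 and 0.020), KIF20A (0.061 and 0.058), KIF23 (0.054 and 0.051) and ECT2 (0.18 and 0.17). After radiation, library size alone gave 0.18 for BUB1B, 0.20 for INCENP and 0.17 for CDC20, and all 3 were then called higher. Of all genes called, the share called higher went from 51.8% to 62.4% and 62.2% without radiation and from 50.9% to 60.2% and 62.4% after it; upper-quartile factors moved it from 47.4% to 57.5% in MCF10A. For Mixed against HCT116 without radiation, members higher numbered 1 with library size alone, 10 with DESeq2, 10 without filter and 11 with all libraries in one fit, and all genes called 526, 671 and 768 under the last 3, against 335. For HCT116 minus MCF10A, larger falls numbered 15 without the mitochondrially encoded and 10 most abundant genes, without filter and with all libraries in one fit, smaller falls 3, 4 and 2 (2 with library size alone and with DESeq2), and medians were -0.072, -0.071 and -0.074. The larger falls of BUB1, BUB1B, CDC20, CENPF, ESPL1, KIF23, KNL1 and PLK4 each lost their call under several alternatives, and NCAPG and NUF2 under 1 each. Leaving out those mitochondrially encoded and abundant genes moved the share called higher from 41.3% to 52.5%. For Mixed minus HCT116, 2 members were called with DESeq2, 4 without filter and 2 with all libraries in one fit, and all genes called were 298 with DESeq2 and 336 without filter, against 150. Specific genes at 50 CPM gave MCF10A shares of 0.345% and 1.07%. In the shorter promoter window of 150 bases before the start, 21.7% of member promoters held an E2F element, against 9.55% of all promoters. No pairing of same-numbered libraries ran through all groups: correlations of their deviations ran from -0.073 to 0.117. None of 15 group pairs had every r over 0.1, and the own number was best for 19 of 45. Pairing between the co-culture and HCT116 was not settled. For HCT116 IR against Mixed IR the r were 0.081, 0.039 and 0.007. For HCT116 NIR against Mixed NIR the own number was best for all 3 (r 0.072, 0.025 and 0.117), a hint from the data and not from the design. The replicate block called 12 members, against 3, and 716 genes, against 335, in that comparison, and after radiation 2220 genes, against 1467. Leaving out 1 replicate at a time gave, for HCT116 against MCF10A without radiation, medians from -0.021 to 0.039. For Mixed against HCT116 it gave 0 to 5 members and 145 to 313 genes without radiation, and 24 to 41 members and 866 to 1312 genes after it. For HCT116 minus MCF10A it gave 14 to 25 larger falls, 1 to 4 smaller and medians from -0.20 to -0.079, and for Mixed minus HCT116 0 to 2 members and 64 to 197 genes. The 3 libraries per group and the low counts of PRC1 and NUSAP1 limit precision; near copies of members (KIF4B, PTTG2, PTTG3P, CDC20P1, BUB1P1) had at most 65 counts in any library.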
